A study of Mus musculus with 6 samples.

Results

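The complement genes of mouse liver were described here as a set of 36 genes, listed by symbol with earlier results of these data known. All 36 were among the 55802 gene symbols listed in the deposited counts, and all 36 were among the 17662 genes with enough counts to be tested. The study measured liver gene expression by RNA sequencing in male C57BL/6 mice, an inbred strain, to ask whether long feeding with polystyrene microplastic (PS-MP) affected it. One group of 3 libraries came from mice given normal chow for 71 weeks (called control), and the other group of 3 libraries came from mice given PS-MP in the chow for 71 weeks (called PS-MP). Strain, sex, rearing time and controlled housing were shared by both groups. The sources used here give neither the particle size nor the dose nor the age at the start of feeding. A treatment field that names PS-MP chow is the same for all 6 samples, so the groups were taken from the titles, with which the field for each sample's chow agrees. The labels do not say that the 3 libraries of a diet came from 3 animals, so the p-values measure only the spread between these libraries.

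Complement is a cascade of blood proteins that tags and lyses microbes and helps to clear damaged cells. The classical pathway starts with C1q bound to antibody or cell debris, the lectin pathway starts with sugar-binding lectins, and the alternative pathway runs on slow turnover of C3. All of them build enzymes called convertases, which cut C3 and then C5, and the terminal components then assemble a pore in the target membrane. Hepatocytes secrete most of the soluble components into blood, whereas the chains of C1q are made chiefly by macrophages, in liver the resident Kupffer cells.

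The upstream sequences of 2 macrophage-made and 2 hepatocyte-made members are shown because the set joins genes with different cell sources. RefSeq promoter windows (build GRCm38.p6) were matched by symbol for 26 of the 36 members. The 250 bases before the annotated start are printed 5′ to 3′ on the gene's strand, with a matching motif in capitals.
C1qb, chr4:136886201-136886450, minus strand: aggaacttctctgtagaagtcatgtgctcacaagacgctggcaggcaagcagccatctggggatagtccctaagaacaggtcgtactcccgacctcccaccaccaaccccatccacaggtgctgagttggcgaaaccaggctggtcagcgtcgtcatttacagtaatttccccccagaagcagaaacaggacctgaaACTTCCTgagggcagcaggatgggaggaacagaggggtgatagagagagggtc
C1qc, chr4:136892915-136893164, minus strand: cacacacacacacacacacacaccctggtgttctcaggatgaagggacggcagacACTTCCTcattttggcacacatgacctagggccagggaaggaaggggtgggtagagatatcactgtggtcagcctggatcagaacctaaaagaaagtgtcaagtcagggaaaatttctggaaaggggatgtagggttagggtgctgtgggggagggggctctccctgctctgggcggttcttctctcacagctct
Hc, chr2:35061413-35061662, minus strand: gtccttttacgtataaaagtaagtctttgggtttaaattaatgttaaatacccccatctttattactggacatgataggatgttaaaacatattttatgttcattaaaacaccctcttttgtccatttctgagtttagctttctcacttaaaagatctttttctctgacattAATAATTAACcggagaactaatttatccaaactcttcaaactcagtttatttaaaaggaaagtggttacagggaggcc
C3, chr17:57228137-57228386, minus strand: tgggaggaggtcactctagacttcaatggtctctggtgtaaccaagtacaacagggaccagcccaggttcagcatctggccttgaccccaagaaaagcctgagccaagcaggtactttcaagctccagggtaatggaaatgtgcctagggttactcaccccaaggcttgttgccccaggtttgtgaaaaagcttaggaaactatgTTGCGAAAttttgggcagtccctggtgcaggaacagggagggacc
In C1qb and C1qc the capitals mark AGGAAGT, a core bound by ETS family factors, which lies on the other strand and so reads ACTTCCT. Its first printed base lies 53 bases before the start in C1qb and 195 bases before it in C1qc. The same letters, on either strand, were in the windows of Fcna, C5ar1 and Masp2, and in 7.69% of all 32851 windows. In Hc, the gene of C5, the capitals mark a shortened form of the site of the hepatocyte factor HNF1, also on the other strand, 78 bases before the start. The windows of Hc and C4bp held it, against 0.371% of all windows. In C3 the capitals mark TTGCNNAA, a form of the C/EBP site, which was also in the windows of C1rb, C1s1 and C9 and in 9.56% of all windows. These 3 motifs were picked from 14 after their matches were seen, and a match is a description of letters.

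The other 11 motifs were searched on both strands of the same windows. No member's window held the C/EBP palindrome TTGCGCAA, the full HNF1 palindrome (which contains the shortened form), the HNF4 form CAAAGTCC, the composite ETS and IRF site or the NF-kB site, which were in 0.164%, 0.00913%, 1.2%, 2.3% and 1.21% of all windows. The PU.1 form GAGGAAGT, which contains the ETS letters, was in the window of C1qc and in 2.44% of all windows. AGGTCA, a nuclear receptor site, was in 6 members' windows (14% of all), TTCNNNGAA, a STAT site, in 5 (7.02%), TATAAA in 4 (12.4%), GGGCGG in 3 (32.7%) and the interferon response element in 2 (2.98%).

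Each library held between 68357478 and 112566641 counts. The hepatocyte markers fixed for this work, led by Alb, summed to between 59804 and 82806 CPM, the usual depth-scaled count, here with library sizes adjusted by the TMM method, so the tissue's defining markers were present in every library. Reads of 18S ribosomal RNA (Rn18s-rs5) took 1.15% to 11.2% of the control counts and 0.387% to 1.14% of the PS-MP counts, with the highest share in control 2. A two-sided exact permutation test of that share gave p = 0.1, the smallest that 3 libraries against 3 allow. Stellate cell markers summed to 340 to 381 CPM on control chow and 313 to 380 CPM in PS-MP, and sinusoidal endothelium markers to 78.2 to 97.1 CPM and 92.3 to 122 CPM. Cholangiocyte markers spanned 12.0 to 26.5 CPM and 11.2 to 21.3 CPM, lymphocyte markers 7.58 to 16.1 CPM and 6.01 to 18.3 CPM, adipocyte markers 18.0 to 61.8 CPM and 7.03 to 24.3 CPM, and mesothelium markers 1.501 to 6.91 CPM and 5.12 to 6.76 CPM. Most of the adipocyte sum was Cidec, at 13.8 to 58.1 CPM on control chow and 4.68 to 17.9 CPM in PS-MP, and Fabp4 overlapped. Plin1, Adipoq and Lep were too scarce to be tested and held 41, 20 and 10 counts in PS-MP 3. In the other libraries Adipoq held at most 2 counts, and Plin1 and Lep held 0. No marker on any of these lists was at 0 in all 6 libraries.

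No complement gene passed the test for a difference between the diets. With edgeR's quasi-likelihood test and Benjamini-Hochberg adjustment over all genes tested, 0 of 36 members were called at an adjusted p of 0.05, and the smallest adjusted p among them was 0.869. Over all genes tested, 2 genes (0.0113%) were called, both higher in PS-MP. DESeq2 called 0 members, against 1.06% of all genes, and limma-voom called 0 members, against 0.00566% of all genes. At an unadjusted p under 0.05, 2 of the 36 members (5.56%) stood out in edgeR, against 5.38% of all genes tested. They were C1qc, higher in PS-MP (2.8% of all genes were higher at this level), and Cr1l, lower in PS-MP (2.58% of all genes). DESeq2 and limma-voom put the same 2 members under that level. The share of members was therefore close to the share of all genes.

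Of the 36 members, 22 (61.1%) had a log2 fold change (PS-MP minus control) above zero and 14 had one below zero, against 52.8% above zero among all genes. Their median log2 fold change was 0.06, against 0.02 for all genes tested. When libraries were scaled by their totals alone, 30 members were above zero, 7 were higher and 0 lower at an unadjusted p under 0.05, and the median of all genes moved by 0.21 on the log2 scale. The 7 higher members were C1qa, C1qb, C1qc, Hc, C7, Cfi and C3ar1. The fold changes of C1qa, C1qb and C1qc were then 0.50, 0.54 and 0.65, in place of 0.30, 0.34 and 0.45. Those of Mbl1, Cd59a and C6 were -0.07, -0.02 and -0.19, in place of -0.28, -0.24 and -0.41. Shares of all genes under that scaling are not given here, so counts of members made with it cannot be set against a background. The 3 libraries of one diet lay wholly above or below those of the other for 5 members (13.9%), against 11.2% of all genes. C1qc and C3ar1 were the 2 that lay higher in PS-MP (6.24% of all genes), and Mbl2, C4bp and Cr1l were the 3 that lay lower (4.99% of all genes). For 28 members (77.8%) the 95% interval of the fold change lay inside a 2-fold change in either direction, against 53.5% of all genes. The intervals of C4a, Cfp, C7, C3ar1, Cfb, C6, Cd55 and C5ar1 reached past it, so a 2-fold difference in those 8 could not be told from none with these libraries.

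**Figure D1:**
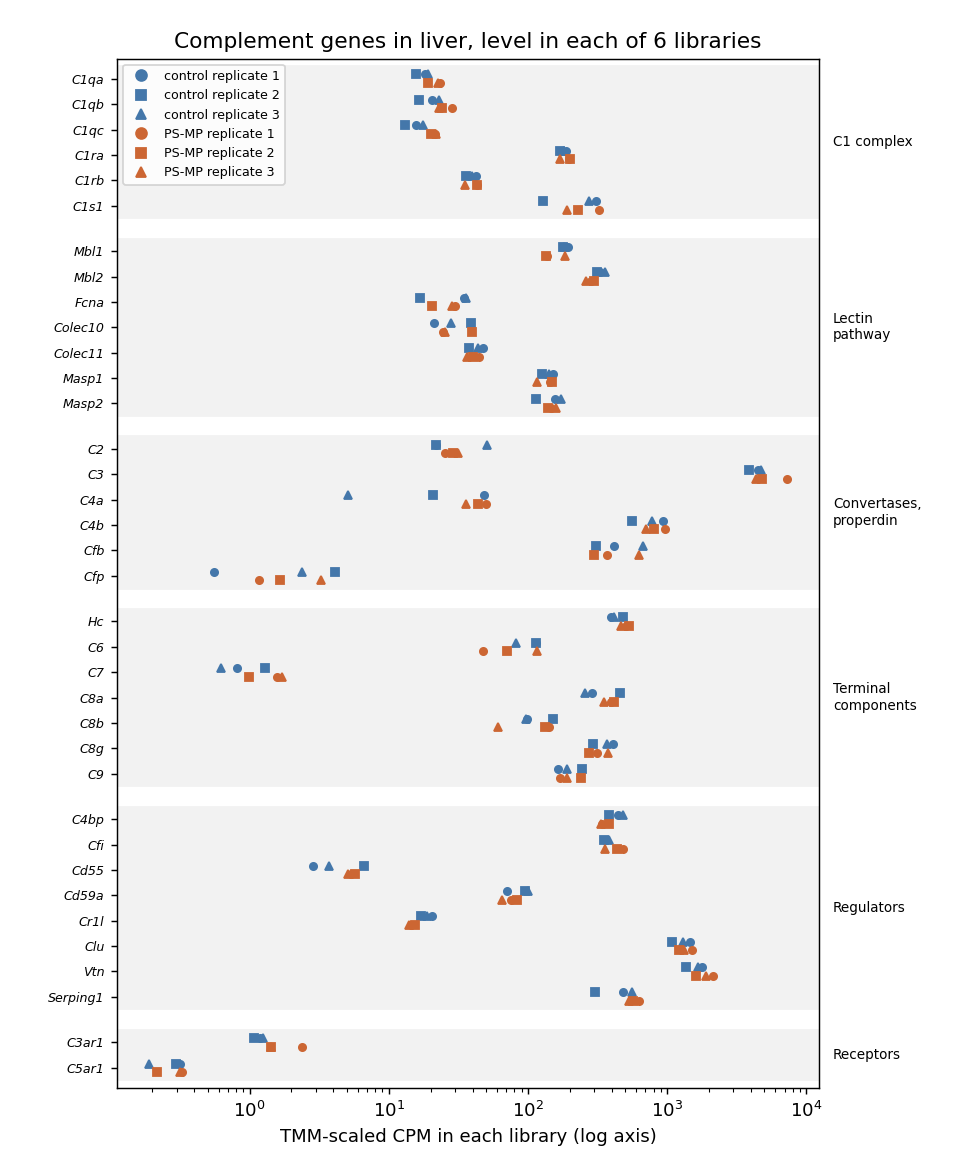
TMM-scaled CPM (log axis) of each of the 36 complement genes in each of the 6 libraries, grouped by role, with control in blue and PS-MP in orange and the replicate given by the marker shape. The points span from under 1 CPM for C5ar1 to 7293 CPM for C3, and the diets lie side by side for most genes.

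**Figure D2:**
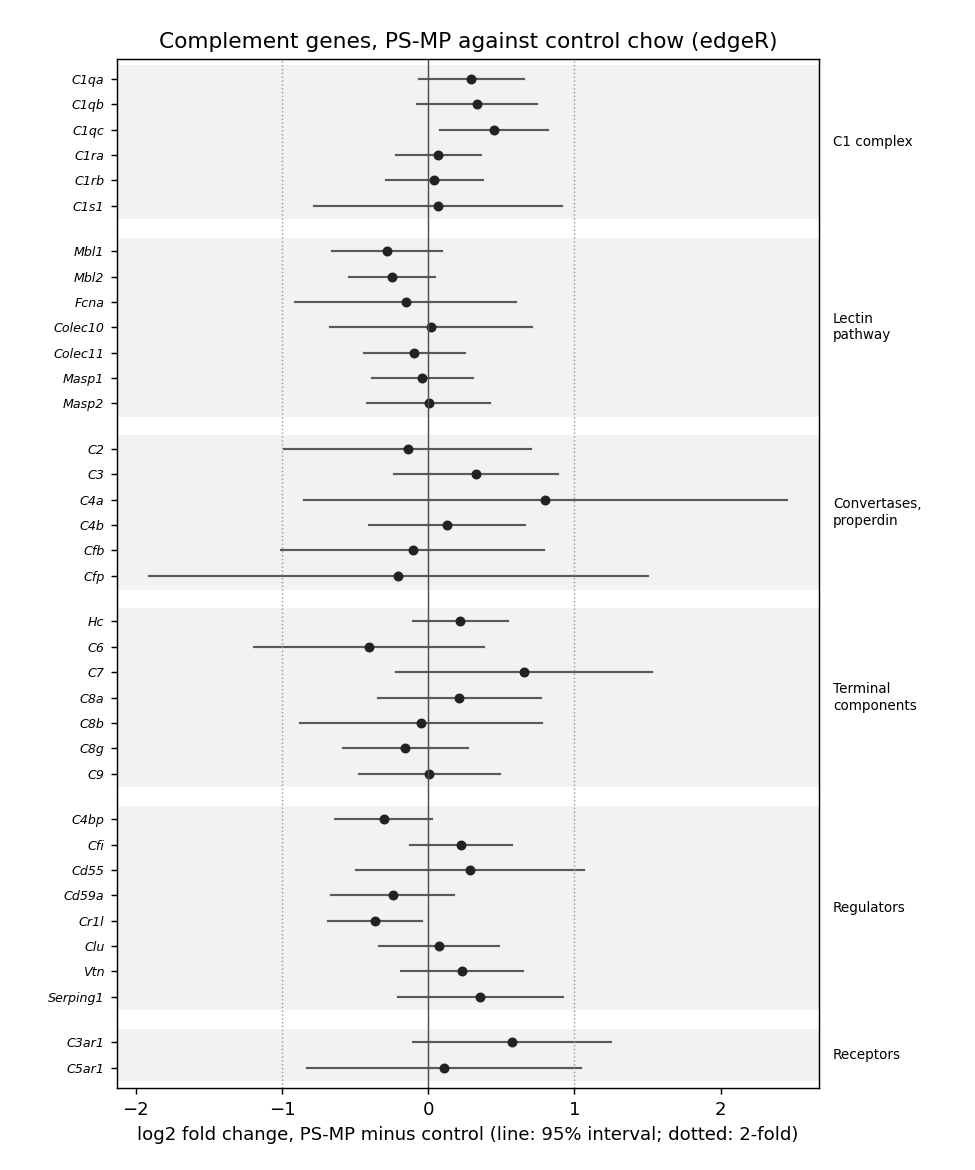
Log2 fold change (PS-MP minus control) of each complement gene from edgeR, with its 95% interval as a line and dotted lines at a 2-fold change. Only the lines of C1qc and Cr1l stay clear of zero, and neither gene passed the adjusted test.

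The C1 complex had 6 of 6 members above zero, with a median log2 fold change of 0.18, and none was called. Without control 2 it had 4 of 6 above zero, as C1rb and C1s1 turned. Both also turned without PS-MP 1, and C1rb turned without PS-MP 2. C1qa, C1qb and C1qc encode the chains of C1q, the recognition part of the classical pathway. C1qa stood at 18.3, 15.6 and 19.3 CPM in control replicates 1, 2 and 3 and at 23.3, 19.3 and 22.7 CPM in the PS-MP replicates. The highest control library and the lowest PS-MP library of C1qa were level, so the groups touched. C1qb read 20.3, 16.4 and 22.9 CPM on control chow and 28.3, 24.1 and 22.8 CPM in PS-MP. There too only control 3 reached into the PS-MP range.
C1qc was measured at 15.8, 13.1 and 17.7 CPM on control chow and 21.6, 20.0 and 21.8 CPM in PS-MP. Every PS-MP library of C1qc was above every control library, with means of 15.5 ± 2.31 and 21.2 ± 1.03 CPM (SD, n = 3). The log2 fold change of C1qc was 0.45 ± 0.15 (SE), a ratio of 1.36 with a 95% interval of 1.06 to 1.76. Its edgeR unadjusted p was 0.0248 and its Benjamini-Hochberg adjusted p 0.869. The fold change of C1qa was 0.30 ± 0.15 (SE) and that of C1qb 0.34 ± 0.17 (SE), with unadjusted edgeR p of 0.0901 and 0.0933. The transcripts of the 3 chains share no stretch of 50 bases with another gene in GENCODE M21.

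C1ra, C1rb and C1s1 encode the proteases that C1q carries. C1ra ranged from 171 to 189 CPM on control chow and from 170 to 202 CPM in PS-MP, with a log2 fold change of 0.07 ± 0.12 (SE). C1s1 was the loosest of the 3, at 306, 128 and 276 CPM on control chow and 323, 230 and 191 CPM in PS-MP. Control 2 was the low library of C1s1, and without it the log2 fold change turned from 0.07 to -0.23. Without PS-MP 1 the log2 fold change of C1s1 was -0.17. C1s1 shares 39% of its 50-base stretches with other genes, and 24.3% with C1s2, so its counts are uncertain. C1ra and C1rb share 48% and 59.2% of their 50-base stretches with each other, so how reads were split between them is uncertain. Their summed level was 220 ± 12.6 CPM on control chow and 230 ± 21.8 CPM in PS-MP (SD, n = 3).

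The lectin pathway leaned the other way, with 5 of 7 members below zero (2 of 7, Mbl1 and Mbl2, when libraries were scaled by totals alone) and a median log2 fold change of -0.09, and none was called. Mbl1 and Mbl2 encode the mannose-binding lectins, which recognise microbial sugars. Mbl2 was measured at 332, 313 and 359 CPM on control chow and 286, 299 and 262 CPM in PS-MP. All 3 PS-MP libraries of Mbl2 lay below all 3 control libraries, with a log2 fold change of -0.25 ± 0.12 (SE) and an unadjusted edgeR p of 0.0861. Scaled by totals alone, its fold change was -0.03. Mbl1 read 196, 180 and 181 CPM on control chow and 138, 134 and 186 CPM in PS-MP. PS-MP 3 was the exception, at the level of the controls, and the log2 fold change of Mbl1 was -0.28 ± 0.16 (SE), or -0.46 without that library.
Fcna, which encodes ficolin A, a lectin of acetylated sugars, stood at 35.0, 16.8 and 35.95 CPM on control chow and at 29.9, 20.3 and 28.6 CPM in PS-MP. Replicate 2 was the low library in both diets, and the groups overlapped throughout. The other lectins, Colec10 and Colec11, had log2 fold changes of 0.02 ± 0.29 and -0.09 ± 0.14 (SE). Masp1 and Masp2, the proteases carried by the lectins, had -0.04 ± 0.15 and 0.00 ± 0.18 (SE). Masp2 shares 57.2% of its 50-base stretches with Tardbp, which overlaps it on the opposite strand, and the sources used here do not give the strand setting of the counting, so the counts of Masp2 are uncertain.

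The convertase components and properdin had 3 of 6 members above zero (6 of 6 when scaled by totals alone) and a median log2 fold change of 0.01, and none was called. C3, the component cut by every pathway, was measured at 4529, 3855 and 4726 CPM on control chow and 7293, 4823 and 4361 CPM in PS-MP. PS-MP 1 stood far above the other 5 libraries, which overlapped. The log2 fold change of C3 was 0.33 ± 0.23 (SE) with PS-MP 1 and 0.07 without it. C4b, which forms the classical and lectin convertase, read 933, 563 and 784 CPM on control chow and 971, 808 and 711 CPM in PS-MP. Its log2 fold change was 0.13 ± 0.22 (SE), and it turned to -0.05 without control 2.
C4a, the mouse paralogue also known as sex-limited protein, had the highest fitted fold change of the 36 members. It was measured at 48.7, 20.7 and 5.11 CPM on control chow and at 50.3, 43.7 and 35.8 CPM in PS-MP. The controls alone spanned nearly the whole range, and control 1 matched the PS-MP libraries. The log2 fold change of 0.80 ± 0.69 (SE) moved to 0.32 without control 3 and to 1.75 without control 1. As a share of the counts of C4a and C4b together, C4a took 4.96%, 3.54% and 0.648% on control chow and 4.93%, 5.13% and 4.79% in PS-MP. The exact Clopper-Pearson 95% interval of the share in control 3 was 0.595% to 0.705%, which covers counting error only, as reads of amplified libraries are not independent molecules. C4a and C4b share 35.2% of their 50-base stretches, and GENCODE M21 lists C4a with noncoding transcripts only, so the split of reads between them is uncertain.
Cfb, the protease of the alternative convertase, stood at 416, 309 and 673 CPM on control chow and 372, 298 and 629 CPM in PS-MP. The replicates spanned a wider range than the diets, with replicate 3 high in both. C2, the protease of the classical convertase, ranged from 21.7 to 51.0 CPM on control chow and from 25.5 to 31.4 CPM in PS-MP, and its log2 fold change turned from -0.14 to 0.40 without control 3. Cfb and C2 share 81.4% and 58% of their 50-base stretches with the readthrough gene Gm20547, which held 8 to 263 counts per library. How reads were split between these genes is uncertain. Cfp, properdin, which stabilises the alternative convertase, was scarce at 0.551 to 4.09 CPM, and its log2 fold change of -0.20 ± 0.71 (SE) turned to 0.46 without control 2 and to 0.08 without PS-MP 1.

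The terminal components had 4 of 7 members above zero (6 of 7 when scaled by totals alone) and a median log2 fold change of 0.01, and none was called. Hc encodes C5, from which the inflammatory peptide C5a is cut. Hc read 398, 480 and 417 CPM on control chow and 509, 536 and 463 CPM in PS-MP. Control 2 lay above PS-MP 3, the only overlap, and the log2 fold change was 0.22 ± 0.14 (SE) with an unadjusted edgeR p of 0.149. C9, which polymerises into the pore, read 164, 244 and 192 CPM on control chow and 170, 242 and 191 CPM in PS-MP. The values of the diets nearly coincided for C9, and the means were 200 ± 40.4 and 201 ± 36.7 CPM (SD, n = 3).
C6 was the member with the lowest fold change, at 114, 114 and 82.7 CPM on control chow and 47.2, 71.1 and 116 CPM in PS-MP. PS-MP 3 was the highest of all 6 libraries and PS-MP 1 the lowest. The log2 fold change of C6 was -0.41 ± 0.33 (SE), -0.14 without PS-MP 1 and -0.82 without PS-MP 3. C7, the scarcest terminal component per kilobase here, stood at 0.812, 1.30 and 0.624 CPM on control chow and 1.58, 0.996 and 1.72 CPM in PS-MP, with a log2 fold change of 0.66 ± 0.37 (SE). Its groups overlapped at control 2 and PS-MP 2, and the fold change was 0.99 without control 2 and 0.44 without control 3. C8a, C8b and C8g encode the chains of C8, with log2 fold changes of 0.21 ± 0.23, -0.05 ± 0.35 and -0.15 ± 0.18 (SE). That of C8a was 0.06 without control 3 and 0.51 without control 2, and that of C8b turned to 0.19 without control 2 and to 0.23 without PS-MP 3.

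The regulators had 5 of 8 members above zero, with a median log2 fold change of 0.15, and none was called. Cr1l encodes Crry, a rodent membrane protein that protects host cells from convertases. Cr1l was measured at 20.5, 17.1 and 18.9 CPM on control chow and at 14.5, 15.3 and 14.1 CPM in PS-MP. All PS-MP libraries lay below all controls, with means of 14.6 ± 0.642 and 18.8 ± 1.70 CPM (SD, n = 3). The log2 fold change was -0.37 ± 0.13 (SE), a ratio of 0.776 with a 95% interval of 0.621 to 0.970, and was -0.16 when scaled by totals alone. Its unadjusted edgeR p was 0.0318 and the Benjamini-Hochberg adjusted p 0.902. Cr1l shares 16.8% of its 50-base stretches with the pseudogene Crry-ps, which was listed with 22 to 58 counts per library.
C4bp, the plasma protein that helps factor I to inactivate C4b, read 444, 381 and 481 CPM on control chow and 340, 380 and 337 CPM in PS-MP. The groups just missed each other at replicate 2, and the log2 fold change was -0.31 ± 0.14 (SE) with an unadjusted edgeR p of 0.0668. It was -0.09 when scaled by totals alone. Cd59a, a membrane protein that blocks the pore, stood at 70.7, 94.6 and 101 CPM on control chow and 75.6, 84.1 and 65.4 CPM in PS-MP, with a log2 fold change of -0.24 ± 0.18 (SE). Its groups overlapped. Cd55, which speeds the decay of convertases, ranged from 2.85 to 6.65 CPM on control chow and from 5.12 to 5.68 CPM in PS-MP, so the PS-MP libraries lay inside the control range.
The secreted regulators Cfi, Serping1, Vtn and Clu had fold changes above zero. That of Clu turned to -0.04 without control 2 and to -0.02 without PS-MP 1. Cfi, factor I, which cuts C3b and C4b, had a log2 fold change of 0.22 ± 0.15 (SE). Serping1, the inhibitor of C1, had 0.36 ± 0.24 (SE), and 0.14 without control 2, its lowest library. Vtn and Clu, which bind the terminal complex in fluid, had 0.23 ± 0.17 and 0.07 ± 0.17 (SE).

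Both receptors of the cleaved peptides were scarce. C3ar1, the receptor of C3a on myeloid cells, read 1.198, 1.07 and 1.25 CPM on control chow and 2.38, 1.43 and 1.42 CPM in PS-MP, from 65 to 196 counts per library. Every PS-MP library was above every control, with the highest value in PS-MP 1. The log2 fold change of C3ar1 was 0.57 ± 0.28 (SE), or 0.28 without PS-MP 1, and its unadjusted edgeR p was 0.0849. C5ar1, the receptor of C5a, stood at 0.317, 0.296 and 0.189 CPM on control chow and 0.328, 0.215 and 0.315 CPM in PS-MP. These values rest on 18 to 27 counts per library and overlap throughout.

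**Figure D3:**
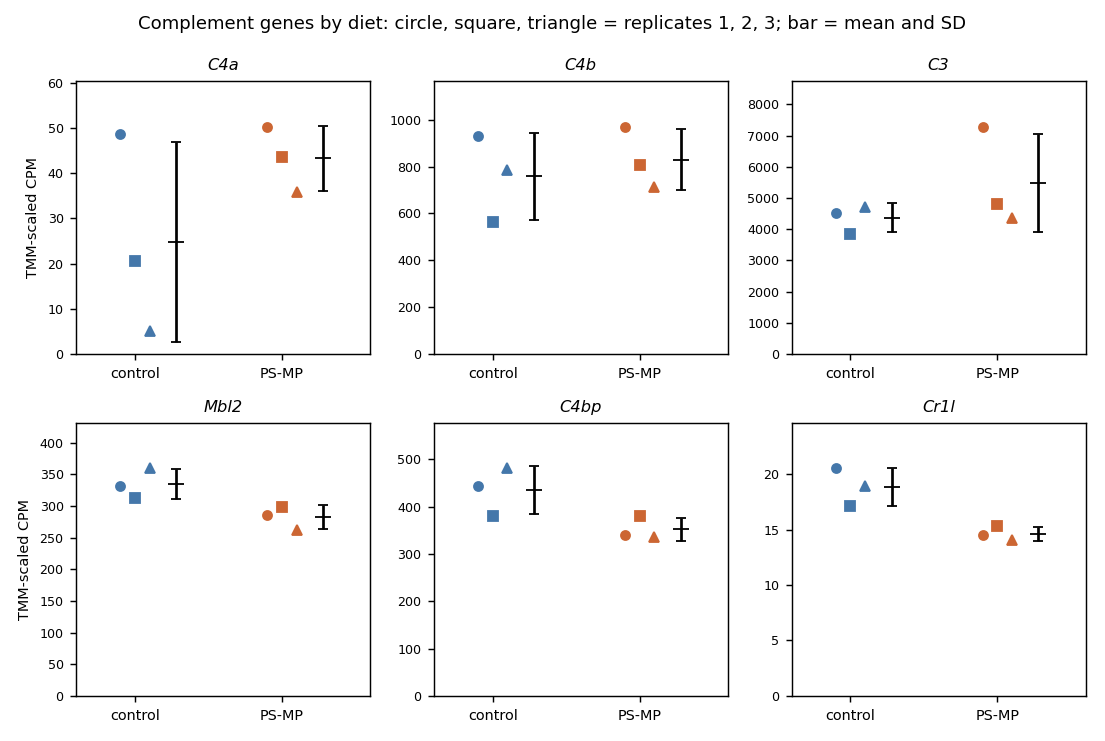
TMM-scaled CPM of C4a, C4b, C3, Mbl2, C4bp and Cr1l by diet, with 1 point per library, a bar for the mean and a line for the SD of 3 libraries, and each vertical axis starting at 0. The diets do not overlap for Mbl2, C4bp and Cr1l, the controls of C4a spread from 5.11 to 48.7 CPM, and the mean of C3 in PS-MP is drawn up by replicate 1.

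The macrophage-made and hepatocyte-made members were then set side by side. The 3 chains of C1q had a mean log2 fold change of 0.36, and the 22 members taken as hepatocyte-made had a mean of 0.05, with 13 above zero and 9 below (18 and 4 when scaled by totals alone). The difference of 0.31 lay between 0.27 and 0.38 over all alternative settings, leave-one-out included. In each library, the mean log2 CPM of the C1q chains minus that of the hepatocyte-made members was -4.05, -4.09 and -3.82 on control chow and -3.65, -3.79 and -3.66 in PS-MP. The diets did not overlap on this measure, though control 3 and PS-MP 2 lay close. No p is given, because the 3 chains were grouped with earlier results of these data known. The macrophage-made group held the C1q chains only, so the contrast does not cover every member that macrophages may express. The other 11 members, assigned to neither source, had 6 above zero and 5 below. Among these, Fcna and Cfp had log2 fold changes of -0.15 ± 0.32 and -0.20 ± 0.71 (SE), and C3ar1 and C5ar1 had 0.57 ± 0.28 and 0.11 ± 0.39 (SE).

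The summed level of the C1q chains was 54.4, 45.1 and 59.8 CPM on control chow and 73.3, 63.3 and 67.3 CPM in PS-MP. The 8 Kupffer cell markers were also higher in sum, at 105, 84.1 and 109 CPM on control chow and 146, 140 and 127 CPM in PS-MP. All 8 had a fold change above zero, against 52.8% of all genes, with a median log2 fold change of 0.56. The libraries of 4 were higher in PS-MP without overlap (6.24% of all genes), of which Vsig4 was separated only by 13.1434 CPM in control 3 against 13.1445 CPM in PS-MP 3. Marco, a scavenger receptor, and Adgre1, the F4/80 antigen, were the 2 with an unadjusted p under 0.05 in edgeR (5.38% of all genes), and edgeR called none of the 8. Marco stood at 3.39, 3.50 and 1.54 CPM on control chow and 22.9, 8.41 and 8.62 CPM in PS-MP, with a Benjamini-Hochberg adjusted p of 0.767 in edgeR and 0.00266 in DESeq2. Clec4f, the marker most restricted to Kupffer cells, read 34.2, 24.97 and 32.5 CPM on control chow and 24.1, 35.2 and 41.0 CPM in PS-MP, and overlapped.
The ratio of the C1q sum to the Kupffer marker sum was 0.520, 0.536 and 0.547 on control chow and 0.503, 0.453 and 0.532 in PS-MP, so the PS-MP ratios lay within or below the control range. Without Marco the ratios were 0.537, 0.559 and 0.555 on control chow and 0.597, 0.482 and 0.571 in PS-MP. Monocyte and macrophage markers summed to 61.8 to 87.1 CPM on control chow and 84.2 to 90.1 CPM in PS-MP, with 7 of 8 above zero. Neutrophil markers summed to 1.28 to 1.75 CPM on control chow and 2.55 to 7.08 CPM in PS-MP. Of the 6 listed, 4 could be tested, and these were higher in PS-MP without overlap (6.24% of all genes). Retnlg, 1 of the 4, was scarce, with none in control 2 and at most 14 counts in any control library. Ngp and Camp were too scarce to be tested, and their libraries overlapped, with both genes at 0 in PS-MP 1. DESeq2 called 1 of the 4 tested, with a smallest adjusted p of 0.038, against 1.06% of all genes. The list was chosen with earlier results of these data known, so these shares are a description and no fair comparison with all genes. The part of these markers in the C1q values was not tested, and in whole liver more macrophages and more RNA per macrophage cannot be told apart.

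**Figure D4:**
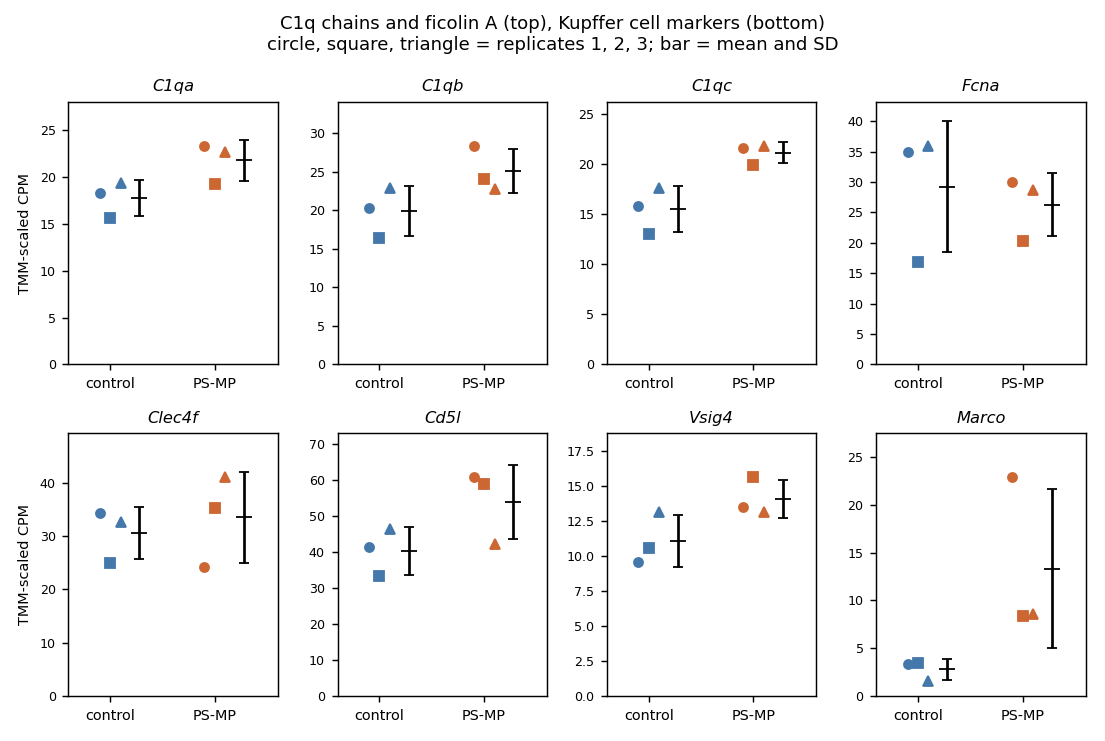
TMM-scaled CPM of the C1q chains and Fcna (upper row) and of 4 Kupffer cell markers (lower row) by diet, with 1 point per library, a bar for the mean and a line for the SD of 3 libraries, and each axis starting at 0. The means of the C1q chains, Cd5l, Vsig4 and Marco are higher in PS-MP, of which C1qc, Vsig4 and Marco do not overlap, and the points of Fcna and Clec4f overlap.

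Other genes of the pathway were read from a list of 24, of which 20 could be tested. Of these, 10 had fold changes above zero and 10 below, edgeR, DESeq2 and limma-voom called 0, and 1 (5%) had an unadjusted edgeR p under 0.05, a share close to the 5.38% of all genes. That gene, Cfhr2, stood at 62.4, 193 and 24.7 CPM on control chow and 6.20, 5.42 and 32.8 CPM in PS-MP. PS-MP 3 lay above control 3, so the groups overlapped despite a log2 fold change of -2.65 ± 0.94 (SE). The Benjamini-Hochberg adjusted p of Cfhr2 was 0.906 in edgeR and 0.11 in DESeq2. Cfhr2 has relatives close to it in sequence, and the stretches it shares with them were not measured here, so its counts are uncertain.
The libraries of 2 of the 20 tested genes (10%) did not overlap, Itgb2 and Vsig4, against 11.2% of all genes, so this share was no higher than the background. Itgb2, the shared beta chain of the integrin complement receptors, ranged from 5.11 to 5.38 CPM on control chow and from 5.49 to 7.85 CPM in PS-MP. Its partner chains Itgam and Itgax had log2 fold changes of -0.28 ± 0.48 and -0.21 ± 0.47 (SE). Vsig4, the receptor by which Kupffer cells bind C3b, is also one of the Kupffer markers above, and had 0.34 ± 0.18 (SE).

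By level per kilobase of transcript, Vtn and C3 led the members, at means over the 6 libraries of 1002 and 960 CPM per kilobase, and their ranges overlapped. Clu followed at 729 CPM per kilobase, and its range overlapped those of Vtn and C3 but did not reach that of the next gene. C8g, Serping1 and Mbl2 formed a group at 295, 291 and 283 CPM per kilobase, again apart from the next. From Cfi at 190 CPM per kilobase down to Cr1l at 6.03, each gene's range overlapped that of its neighbour. The C1q chains sat within this run, at 20.7 (C1qb), 19.0 (C1qa) and 15.2 (C1qc) CPM per kilobase. Cd55, Cfp, C7 and C3ar1 lay at 1.93, 1.34, 0.437 and 0.338, and C5ar1 was lowest at 0.109 CPM per kilobase. Lengths were those of the longest transcript in GENCODE M21, which may differ from the transcripts made in these livers.
The 36 members together took 1.30%, 1.01% and 1.29% of all counts on control chow and 1.77%, 1.49% and 1.41% in PS-MP. C3 alone made up 33.1% to 43.0% of their summed CPM, with the top share in PS-MP 1. After TMM scaling their sum was 11342 to 13701 CPM on control chow and 13162 to 16947 CPM in PS-MP, so the diets overlapped on that scale.

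Single libraries stood apart for many members. Control 2, the library with the highest 18S share, was the lowest control for 23 of 36 members, whereas it was the lowest control for 37.0% of all genes tested. It was lowest for 6 of 6 members of the C1 complex, for 6 of 7 of the lectin pathway for 6 of 8 regulators, for 3 of 6 convertase components and properdin and for 1 of 2 receptors. Among the terminal components it was instead the highest control for 5 of 7, Hc, C7, C8a, C8b and C9, against 39.7% of all genes. These counts by role are a description, with no test. Without control 2 the members at an unadjusted p under 0.05 in edgeR were 6, namely C1qc, C7, C8a and Cd55 higher and C4bp and Cr1l lower. The share of all genes at that level without control 2 is not given here, so the 6 cannot be set against a background. PS-MP 3 was the lowest PS-MP library for 20 members (35.1% of all genes), and PS-MP 1 was the highest PS-MP library for 15 (31.5% of all genes). Without PS-MP 1 no member had an unadjusted p under 0.05. The part of the 18S share in these differences was not tested.

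**Figure D5:**
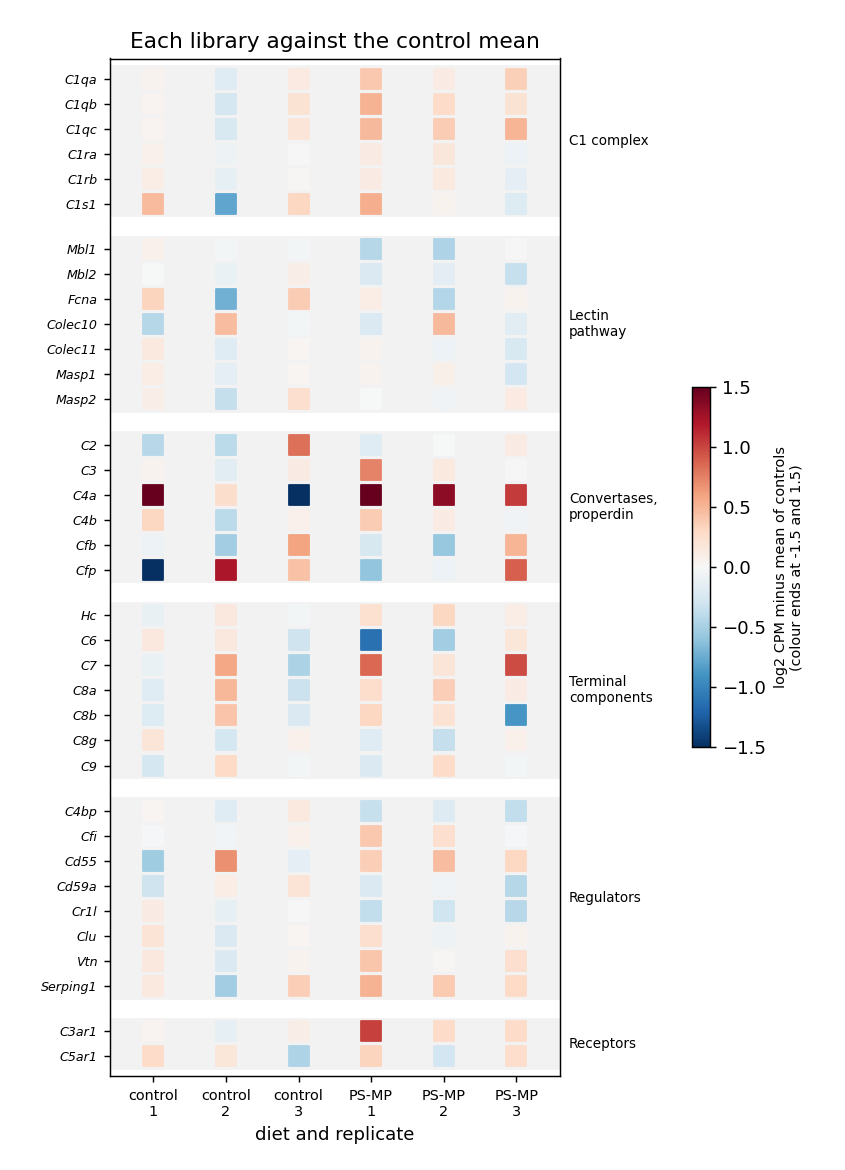
Log2 CPM of each complement gene in each of the 6 libraries minus the mean of the 3 controls, in colour, with genes grouped by role and the colour scale ending at -1.5 and 1.5. The column of control 2 is blue for the C1 complex and most of the lectin pathway and red for Hc, C7, C8a, C8b and C9, and the row of C4a spans the scale within control.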

How the data were processed

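The files the authors deposited hold raw counts of reads for each gene, judged by their whole-number values and unequal totals. Libraries were directional and poly(A)-selected, per the labels' protocols, and the submitters' processing notes name GRCm39 and bcl2fastq. Which aligner, counting program, annotation and strand setting they used is not given in the sources used here. A table of the whole series (6 columns) was not used. Among 56674 rows, 67 symbols occurred more than once, and their counts were summed. Counts were scaled by TMM, filtered by filterByExpr and fitted with edgeR 4.0.16 (R 4.3.3, quasi-likelihood test, diet as the only term), with Benjamini-Hochberg adjustment over 17662 genes. Intervals used 6.63 moderated degrees of freedom. DESeq2 1.42.0 and limma 3.58.1 (voom) were alternatives, with other scalings, filters, a replicate block and each library left out. The code was tested on simulated data. The log2 CPM values used a prior count of 2. Transcript lengths, shared stretches of 50 bases and overlapping genes came from GENCODE M21, no coordinates of which are printed. That annotation and the printed promoter windows are on GRCm38, an earlier build than the GRCm39 of the submitters' notes.

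The members and all lists (roles, cell sources, pathway, acute phase and marker lists) were chosen with earlier results of these data known. Members with values in every library were C1qa, C1qb, C1qc, C3, Hc, C4a, C4b, C9, Cfb, Mbl1, Mbl2, Fcna and C5ar1, with the 5 of smallest unadjusted p in each direction; C1s1, C6 and the genes outside the set named with values were added after their values were seen. The values of 1 gene of the pathway list are not reported here.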

Additional observations from a re-analysis of the deposited data

How the results depend on the processing

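The number of members called was 0, and so was that of other pathway genes called, under every alternative run. Over all genes, 2 were called, against 187 with DESeq2, 1 with limma-voom, 0 with the replicate block and 0 to 4 with 1 library left out. Members at an unadjusted p under 0.05 numbered 2, against 7 when libraries were scaled by their totals alone, 1 with the replicate block and 0 to 6 with 1 library left out. The shares of all genes at that level in these alternatives are not given here. The median log2 fold change of the members, 0.06, was 0.26 with totals alone, where the median of all genes was 0.23, and 0.01 to 0.11 with 1 library left out. The difference between C1q and hepatocyte-made members, 0.31, kept its sign throughout. C1qc kept an unadjusted p under 0.05 in 12 of 15 alternatives and lost it without control 1, PS-MP 1 or PS-MP 3. Cr1l kept it in 8, and of the runs with a library left out only in that without control 2. The smallest adjusted p of any member was 0.489, with totals alone. Scaling by totals alone leaves out the TMM factors, which were 0.957, 0.891 and 0.940 on control chow and 1.04, 1.11 and 1.07 in PS-MP. Why these factors differed between the diets was not tested, nor was the cause of the other shifts. Libraries with the same replicate number were not paired by the labels, and their deviations correlated at 0.11, 0.14 and -0.13, so the replicate block is no paired analysis of animals. C5ar1 could not be fitted under the filter of 1 CPM in 3 libraries.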

Other observations

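Acute phase genes, which hepatocytes make alongside complement in inflammation, were read beside the members. Of 13 such genes, all tested, 8 had a log2 fold change above zero, 0 had an unadjusted p under 0.05 in edgeR, against 5.38% of all genes, and the median was 0.13. Their summed level was 12616 to 15535 CPM in control and 12972 to 17665 CPM in PS-MP. Itih4, an inhibitor heavy chain secreted by the liver, had 0.54 ± 0.28 (SE), Lcn2, an iron-binding protein of inflammation, had 0.96 ± 0.59 (SE), and Saa2, a serum amyloid, had -0.61 ± 0.38 (SE). Lcn2 was highest in PS-MP 1, at 16.2 CPM against 2.18 to 6.01 CPM in the other 5 libraries, the same library in which C3 was highest. These genes were picked from the list after their values were seen.

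The ratio of C8a to C8b, chains of the same protein, was 2.67 to 3.02 in the controls and 2.78 and 3.14 in PS-MP 1 and 2, and 5.75 in PS-MP 3, where C8b was at 61.4 CPM against 97.0 to 152 CPM in the other libraries.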
